A study of Danio rerio with 9 samples.

Results

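Eyes dissected from zebrafish embryos exposed to ethanol were compared with eyes of control embryos at 30 hours post fertilization (hpf). The comparison rests on 2 of the 9 arrays of the study, 1 ethanol array and 1 control array, chosen by their titles. The whole series holds ethanol and control eyes at 27, 30, 36 and 48 hpf and eyes taken at 24 hpf before treatment, with 1 Affymetrix array per condition. The study is titled after Heat Shock Factor 1, which activates chaperone genes when proteins misfold. The labels give no genotype for either group, nor, in the sources used here, the dose of ethanol or the length of exposure. Another label, the treatment characteristic, marked both 30 hpf samples as untreated. The titles and source names both separate the 30 hpf samples into ethanol and control, and the groups follow them.

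Each value is a MAS5 signal, the brightness of a probe set, which is a group of short probes against the same transcript. Of 15502 probe sets, 8101 were kept because the brighter of the 2 arrays was above its own median for that probe set. In 750 of those the dimmer array was below its median, so that these probe sets passed through the brighter array alone. Differences are ethanol minus control on the scale log2(signal + 5), where 1 stands for 2-fold, and this scale understates the change of dim genes. Where a gene had several probe sets, the brightest stands for it. With 1 array per group a difference at 30 hpf has no replicate check and no test, and "higher" and "lower" compare these 2 arrays. Fewer cells of a type and less RNA per cell cannot be told apart in such whole-tissue samples.

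By 30 hpf the zebrafish eye is an optic cup around a young lens. Its inner layer is made of dividing progenitors, kept in that state by eye field factors such as rx and pax6 genes. Neurons are born in a wave that starts with retinal ganglion cells, for which atoh7 is required, and later takes in interneurons and photoreceptors, whose fate depends on crx and related factors. The eye lies against the forebrain and close to the yolk, whose outer syncytial layer makes apolipoproteins and other plasma proteins before the liver does.

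The defining genes of the eye were bright on both arrays. The eye field gene pax6a had 824 in ethanol eyes and 963 in control eyes, pax6b had 495 and 592, and six3a had 441 and 431. The lens crystallin crybb1, which codes for a refractive protein of the lens fibre, had 3010 in ethanol eyes and 3725 in control eyes. Genes of tissues other than the eye were also present on both arrays. The embryonic globin gene hbae3 had 1569 in ethanol eyes and 1182 in control eyes, and the skin keratin gene krt4 had 1687 and 1877.

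As deposited, more probe sets were 2-fold higher than 2-fold lower in ethanol eyes, and this order depends on the scaling. Of the 8101 kept probe sets, 294 (3.63%) were at least 2-fold higher and 31 (0.383%) at least 2-fold lower in ethanol eyes. In 157 of the 294 and 8 of the 31 the dimmer array was below its median, so they passed the filter through the array where they are high. The median difference of all kept probe sets was 0.03, and 53.3% of them were above 0. The middle of the distribution was narrow, with the 5th percentile at -0.55 and the 95th at 0.90. The ethanol array had a median signal of 44.96 and the control array one of 36.8, while both had the same trimmed mean of about 125 to which the deposited arrays had been scaled. With each array centred on its own median instead, 131 probe sets were at least 2-fold higher and 148 at least 2-fold lower, and the median of all kept probe sets became -0.22. With quantile normalization over the 9 arrays the counts were 171 higher and 89 lower. The excess towards ethanol was thus smaller with quantile normalization and absent with centring. For comparison, the ethanol and control arrays at 27 hpf gave 79 higher (0.982%) and 30 lower (0.373%). Those at 36 hpf gave 116 higher (1.43%) and 20 lower (0.247%), and those at 48 hpf gave 470 higher (5.67%) and 247 lower (2.98%).

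**Figure D1:**
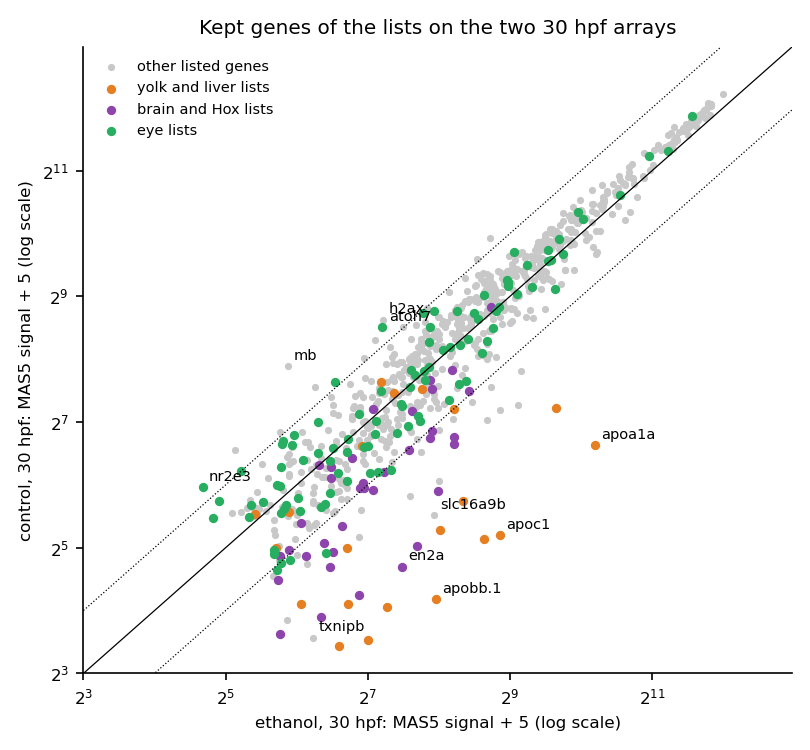
Signal in ethanol eyes (horizontal axis) against control eyes (vertical axis) at 30 hpf for the kept genes of the lists, both on log axes as MAS5 signal + 5. Each point is 1 gene by its brightest probe set, the solid line marks equal signal and the dotted lines mark 2-fold. Yolk and liver genes (orange) such as apobb.1 lie far to the right of the line, brain genes (purple) lie mostly to its right, and the eye genes (green) lie around it, with atoh7 and nr2e3 above the upper dotted line.

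Just inside the threshold on the higher side was prnprs3, a prion-like protein gene, with 347 in ethanol eyes and 171 in control eyes, and just outside it were arrb2b (472 and 233) and napepld (51.6 and 23.3). On the lower side noc4l, with 176 in ethanol eyes and 358 in control eyes, was just inside, and the aminopeptidase gene lap3 (133 and 271) was just outside.

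The 294 probe sets stood for 179 named genes, and 103 of the probe sets had no gene symbol in the tables used. The largest difference of all belonged to such an unnamed probe set, with 762 in ethanol eyes and 33.4 in control eyes (4.32). By the gene lists used here, 14 of the 179 genes belong to yolk or liver and 19 to the brain outside the eye. Another 5 belong to eye lists, 5 to muscle, skin, blood or cartilage, 12 to lists of cell processes, 4 to signalling pathways, and 122 to no list. A gene can stand in more than 1 list. The 31 lower probe sets stood for 26 named genes, of which 0 were yolk or liver genes, 0 brain genes and 3 eye genes. Among 5503 kept genes, the yolk and liver lists held 8, 7 and 7, the brain list 35 and the Hox list 1. With so few such genes kept, 0 of 26 is no result about them. The kept genes of the eye lists are counted further below.

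Apolipoprotein and plasma protein genes, made by yolk and liver, had the largest list medians. Of 14 apolipoprotein and lipoprotein assembly genes on the array 8 were kept, 5 of them only through the ethanol array, and all 8 were at least 2-fold higher in ethanol eyes, with a median difference of 3.04. The probe sets kept for being bright in ethanol eyes had to differ, so the count describes these 8 genes and not the list. Over all 14 genes on the array the median was 1.78 and 13 were above 0. The gene apobb.1, which codes for the apolipoprotein B scaffold of secreted lipoproteins, had 244 in ethanol eyes and 13.2 in control eyes (3.77). The gene apoc1 had 458 in ethanol eyes and 31.8 in control eyes (3.65). The gene apoa1a, for the main protein of high-density lipoprotein, had 1171 in ethanol eyes and 94.3 in control eyes (3.57). Apolipoprotein genes apoa4b.1 (3.46), apoa4b.2 (2.61), apoa2 (2.42) and apoc2 (1.96) followed, and apoeb, which is also expressed in the nervous system, was near the threshold with 292 in ethanol eyes and 143 in control eyes.

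Other plasma protein genes were also higher in ethanol eyes. Of 26 on the array 7 were kept, 6 were higher in ethanol eyes, 4 by at least 2-fold, and their median difference was 2.60. In 3 of the 7 only the ethanol array was above its median, so these had to differ. Over all 26 on the array 19 were above 0 and the median was 0.69. The gene afp4 had 394 in ethanol eyes and 30.4 in control eyes (3.49). The gene fetub, for a circulating protease inhibitor of the fetuin family, had 149 in ethanol eyes and 11.7 in control eyes (3.21), and serpina1l, for an antitrypsin-like protein, had 92.1 and 5.87 (3.16). The iron carrier gene tfa had 319 in ethanol eyes and 48.3 in control eyes (2.60). Another list, of enzymes, carriers and factors of liver, gut and yolk cells, differed less. Of its 26 genes on the array 13 were above 0 (median 0.07), and of the 7 kept 5 were higher and 2 lower (median 0.30, or 0.05 with centring). Its 2 genes at least 2-fold higher were the fatty acid binding protein genes fabp1b.1 (2.74) and fabp2 (1.71). In 4 of the 7 the dimmer array was below its median. Among them were fabp1b.1 and fabp2, which passed through the ethanol array and so had to differ. The kept plasma protein gene that was lower was igfbp1a, which binds insulin-like growth factors, with 140 in ethanol eyes and 194 in control eyes (-0.45), though it was 0.65 above the interpolated control described next.

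Both 30 hpf arrays were compared with the controls at 27 and 36 hpf for these genes. The summed signal of the 14 apolipoprotein genes was 3311 in ethanol eyes and 481 in control eyes at 30 hpf. The ethanol sums at 27, 36 and 48 hpf were 3163, 1179 and 1054. The control sums at the same stages were 1734, 1148 and 663, and the untreated eyes at 24 hpf had a sum of 2748. The 30 hpf ethanol array therefore had the highest sum of the 9 arrays and the 30 hpf control array the lowest. Against the level interpolated between the 27 and 36 hpf controls, the 8 bright genes had a median of +1.29 in ethanol eyes and -1.81 in control eyes. In 8 of 8 the ethanol array lay above both of these controls, and in 8 of 8 the 30 hpf control lay below both. The gene apoa1a shows this pattern. Its ethanol value of 1171 at 30 hpf was close to the 1154 in ethanol eyes at 27 hpf. Its 94.3 in the 30 hpf control stood against 946 at 24 hpf and 535, 330 and 157 in the controls at 27, 36 and 48 hpf. How far the amount of yolk left on the dissected eyes accounts for these values was not tested.

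**Figure D2:**
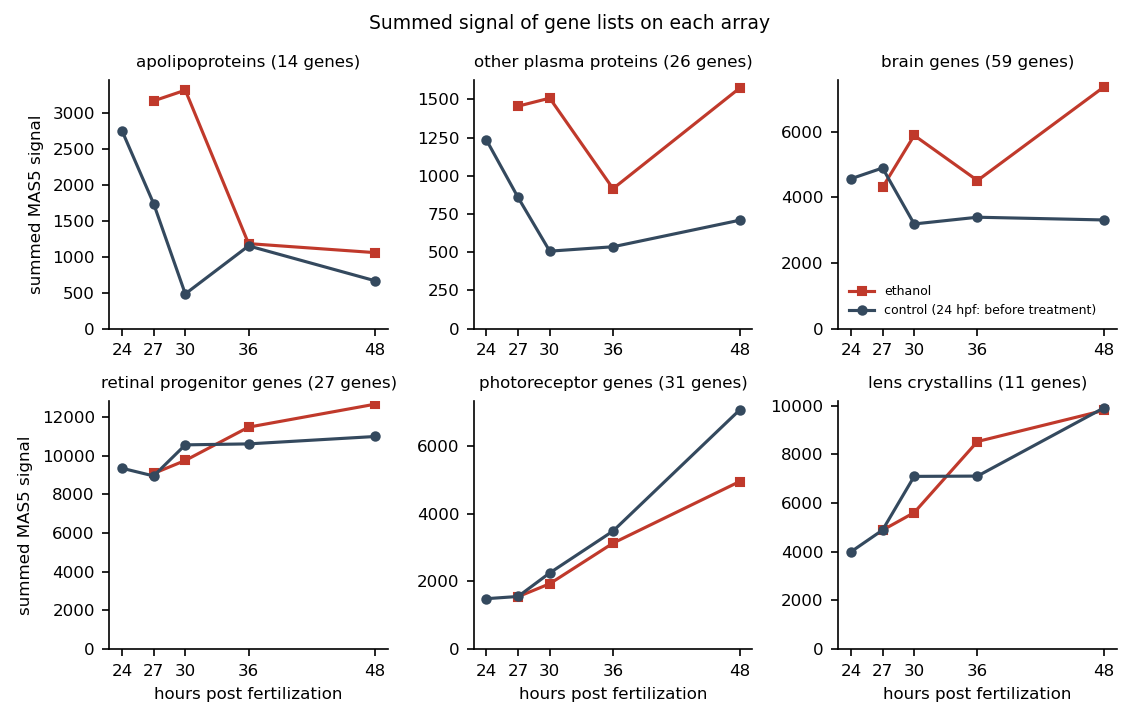
Summed MAS5 signal of all genes of a list on the array (vertical axis) by hours post fertilization (horizontal axis) for ethanol eyes (red squares) and control eyes (dark circles, with the untreated eyes at 24 hpf). Each point is 1 array. Apolipoproteins were highest in ethanol eyes and lowest in control eyes at 30 hpf, brain genes were higher in ethanol eyes from 30 hpf on, and photoreceptor genes and crystallins were lower in ethanol eyes at 30 hpf.

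Both 30 hpf arrays were also set against their neighbours over all bright probe sets. Among the 9301 probe sets in the upper 60% by mean signal, the ethanol array was at least 2-fold above both the 27 and 36 hpf controls in 67 (0.72%) and at least 2-fold below both in 7 (0.0753%). The control array at 30 hpf was at least 2-fold below both in 12 (0.129%) and above both in 6 (0.0645%). Against the ethanol arrays at 27 and 36 hpf, the 30 hpf ethanol array was at least 2-fold below both in 2 and above both in 4. The same counts were 4 below and 2 above for the 27 hpf control between 24 and 30 hpf, and 7 and 7 for the 36 hpf control between 30 and 48 hpf. When the interpolated control took the place of the 30 hpf control, 162 probe sets were at least 2-fold higher and 33 at least 2-fold lower in ethanol eyes. All 14 yolk and liver genes at least 2-fold higher were also above the interpolated control, 10 of them by at least 2-fold. These 14 genes were chosen by the same 30 hpf ethanol value, so these counts are no independent check.

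Brain genes from outside the eye were the second group with large differences. Of 59 on the array 35 were kept, 12 of them only through the brighter array, 32 were higher in ethanol eyes, 18 by at least 2-fold (against 3.63% of all kept probe sets), and the median was 1.02. Among the 12 were en2a, en2b, en1b, dmbx1a and dbx1b, which passed through the ethanol array and so had to differ. Over all 59 on the array 54 were above 0 and the median was 0.83. The engrailed genes mark the border of midbrain and hindbrain. Of these en2a had 174 in ethanol eyes and 21.0 in control eyes (2.79), en2b had 201 and 27.8 (2.65), and en1b had 112 and 13.9 (2.63). The midbrain homeobox gene dmbx1a had 76.2 in ethanol eyes and 9.84 in control eyes (2.45). The neural progenitor factor genes olig3 and dbx1b had 248 and 83.5 in ethanol eyes and 54.9 and 21.0 in control eyes. The forkhead gene foxb1a was also higher (1.58), as was the hindbrain gene hoxa2b with 49.1 in ethanol eyes and 7.31 in control eyes, the only kept one of 42 Hox cluster genes. The gene hoxa2b passed through the ethanol array alone, so it had to differ. Over all 42 Hox genes 25 were above 0 and the median was 0.03. Among the lowest brain genes were fezf2, a forebrain factor (74.4 in ethanol eyes and 74.6 in control eyes), and olig2 (129 and 143).

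The brain genes differed by stage. Over the 40 brain genes in the upper 60% by mean signal, the median differences at 27, 30, 36 and 48 hpf were -0.02, 0.97, 0.46 and 1.51. At 30 hpf the ethanol array lay above both the 27 and 36 hpf controls in 23 of the 40 and the control below both in 21, with medians of +0.49 for the ethanol array and -0.47 for the control against the interpolated level. For en2a the interpolated control level was 58.5, between the 174 of ethanol eyes and the 21.0 of control eyes. The forebrain factor gene neurod6b went the other way at 27 hpf, where ethanol eyes had 128 and control eyes 338, while at 30 hpf they had 292 and 95.4. How far brain tissue left on the dissected eyes accounts for these values was not tested.

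Among the 122 genes in no list with a probe set at least 2-fold higher, some known from neurons are named here, chosen after their values were seen. They are the synaptic vesicle genes syt1a (147 in ethanol eyes and 60.3 in control eyes), syt4 (143 and 62.1) and cplx2a (113 and 46.4), the tau gene maptb (76.8 and 32.4), the axon guidance receptor gene robo1 (127 and 57.7) and the midbrain peptide hormone gene gnrh2 (49.5 and 14.1). Of these, maptb and gnrh2 passed through the ethanol array alone, so they had to differ. By their brightest probe sets a few of the 122 genes were under 2-fold or not higher at 30 hpf. Of the 122 genes, 90 were higher in ethanol eyes at 27 hpf, 113 at 36 hpf and 94 at 48 hpf by their brightest probe sets. Over all 8101 kept probe sets the counts above 0 at these stages were 4389, 4112 and 3937. Of the 122 genes, 119 were above the interpolated control, 28 of them by at least 2-fold. The genes were chosen by the same 30 hpf ethanol value, so the counts against the interpolated control are no independent check. Others in no list were gatm, an enzyme of creatine synthesis expressed in the yolk layer of the embryo (162 in ethanol eyes and 24.3 in control eyes), and acp5a, a phosphatase of osteoclasts and macrophages (54.5 and 8.73). Both gatm and acp5a passed through the ethanol array alone, so they had to differ.

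Heart muscle genes were higher in ethanol eyes and the muscle list was mixed. Of 38 muscle genes 7 were kept, 5 were higher and 2 lower, with a median of 1.13. Over all 38 on the array 23 were above 0 and the median was 0.23. The cardiac contractile genes tnnt2a (404 in ethanol eyes and 127 in control eyes), myl7 (421 and 184) and tnnc1a (45.9 and 18.3) were higher by 1.13 to 1.64. Of these, tnnc1a passed through the ethanol array alone, so it had to differ. The control level of myl7 was 495 at 24 hpf and 314, 184, 11.4 and 48.8 at 27, 30, 36 and 48 hpf, so its 30 hpf control lay between its neighbours. The oxygen-binding protein gene mb, for myoglobin, had the largest difference on the lower side, with 53.6 in ethanol eyes and 231 in control eyes (-2.01). At 27, 36 and 48 hpf mb had 81.9, 280 and 443 in ethanol eyes and 74.1, 344 and 950 in control eyes. Against the interpolated control its ethanol value at 30 hpf was at -1.15. Blood and vessel genes (10 of 12 kept genes higher, median 0.28) and skin genes (24 of 32 higher, median 0.30) differed less, and none of either list reached 2-fold. In the skin list krt1-19e was the lowest, with 277 in ethanol eyes and 529 in control eyes (-0.92), and the cartilage collagen gene col2a1a was 1.14 higher.

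**Figure D3:**
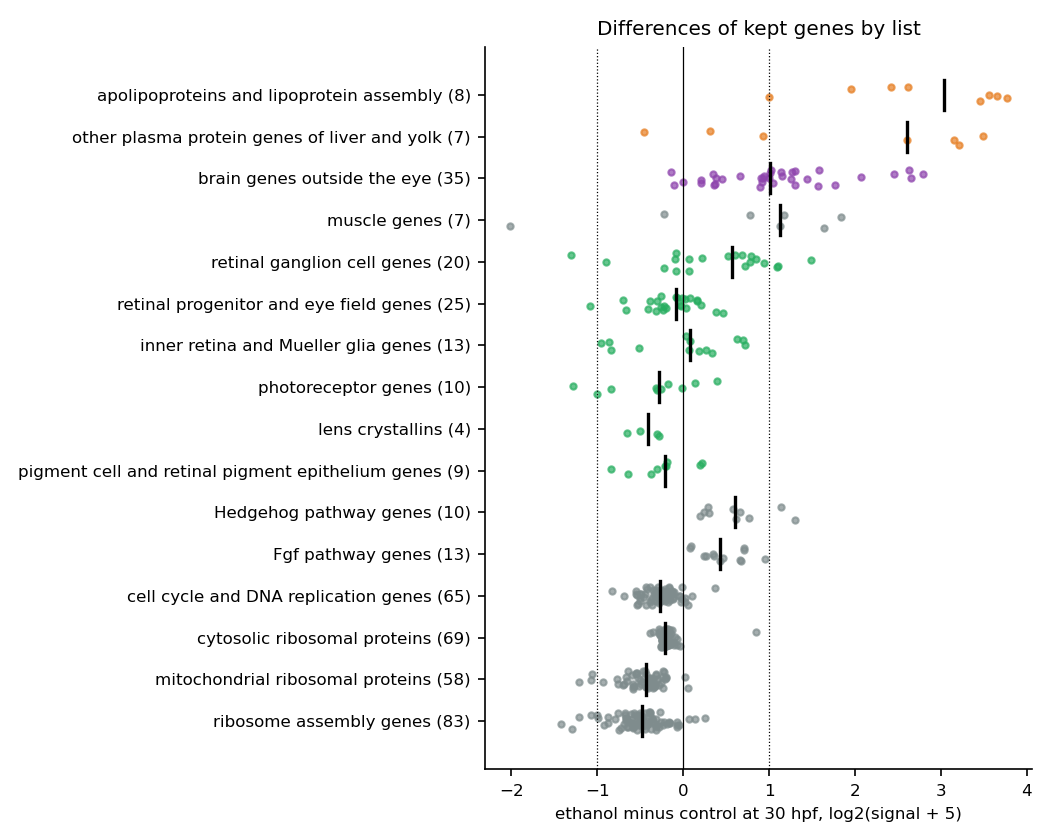
Ethanol minus control at 30 hpf in log2(signal + 5) (horizontal axis) for each kept gene of 16 lists, with the number of kept genes in parentheses. Each point is 1 gene, the black bar is the list's median, and the dotted lines mark 2-fold. The medians of yolk, plasma and brain lists lie at 1.02 or above, those of the eye lists lie between -0.40 and 0.56, and nearly all genes of ribosomes and mitochondrial ribosomes lie below 0.

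The eye genes showed smaller and mixed differences. Of the eye-list genes 5 were at least 2-fold higher, and 3 were at least 2-fold lower, the factor genes rx2, atoh7 and nr2e3. Over all kept probe sets the shares were 3.63% higher and 0.383% lower. The eye lists kept 25 progenitor, 20 ganglion cell, 10 photoreceptor and 13 inner retina genes. They also kept 4 crystallin, 7 other lens, 9 pigment and 13 optic stalk genes, some of them in more than 1 list. Against the interpolated control 1 of these 3 was still lower. Of 25 kept progenitor and eye field genes 8 were higher and 17 lower, with a median of -0.09, or 0.11 against the interpolated control. The eye field gene rx2 had 88.3 in ethanol eyes and 193 in control eyes (-1.09), a second probe set of it gave -1.19, and rx1 had 23.2 and 39.5 (-0.66, but 0.11 against the interpolated control). The gene rx1 passed through the control array alone, so it had to differ. The factor genes six6b (-0.38), pax6b (-0.26), pax6a (-0.22) and six3b (-0.03) were lower by less, while rx3 was 0.46 higher and sox2 was 0.16 higher. For rx2 the interpolated control was 74.2, so the 30 hpf control was high and the ethanol value of 88.3 was 0.24 above the interpolation. The lower rx2 in ethanol eyes therefore rests on 1 control array.

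Ganglion cell genes were mixed. The gene atoh7, the bHLH factor that makes progenitors competent to become ganglion cells, had 143 in ethanol eyes and 358 in control eyes (-1.30). In ethanol eyes atoh7 was 77.5, 143, 571 and 215 at 27, 30, 36 and 48 hpf. In the controls it was 45.4 at 24 hpf and 59.5, 358, 514 and 263 at the later stages. At 27 and 36 hpf the ethanol values were the higher ones, by 0.36 and 0.15. At 30 hpf the ethanol value was 0.19 above the interpolated control, so the lower value in ethanol eyes holds against the 30 hpf control and not against a straight line on the log2 scale between its neighbours. The chemokine receptor gene cxcr4b, of newborn ganglion cells, had 50.8 in ethanol eyes and 98.4 in control eyes (-0.89). The LIM factor gene isl1a, a marker of ganglion cells, differed by -0.08.

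Some genes of growing axons and of neurons in general were higher in ethanol eyes. The stathmin gene stmn4 had 80.3 in ethanol eyes and 25.3 in control eyes (1.49), elavl4 had 54.9 and 22.8 (1.11), and the growth cone gene gap43 had 155 and 70.19 (1.09). All 3 genes are expressed in brain neurons as well as in ganglion cells. Against the interpolated control gap43 was at 0.27 and stmn4 at 0.54. Over the 20 kept ganglion cell genes 14 were higher in ethanol eyes and the median was 0.56, or 0.31 with centring and 0.19 against the interpolated control. In 3 of these 20 the dimmer array was below its median. Among them were stmn4 and elavl4, which passed through the ethanol array where they are high. Over all 25 ganglion cell genes on the array 15 were above 0 and the median was 0.22.

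The photoreceptor list as a whole was centred near 0, and several of its factor genes were lower in ethanol eyes. Of 31 on the array 15 were above 0, and the median was -0.0021. Of the 31 genes 10 were kept, 2 higher and 8 lower with a median of -0.28. In 4 of the 10 the dimmer array was below its median, among them nr2e3, crx and elovl4b, which passed through the control array where they are high. The nuclear receptor gene nr2e3, of rod fate, had 20.6 in ethanol eyes and 57.2 in control eyes (-1.28). At 27, 36 and 48 hpf it was 14.7, 141 and 181 in ethanol eyes and 25.7, 239 and 332 in control eyes, so that it was lower in ethanol eyes at 4 of 4 stages. The homeobox gene crx, which drives photoreceptor genes, had 32.3 in ethanol eyes and 69.4 in control eyes (-0.996), and was at -0.09, -0.32 and -0.30 at 27, 36 and 48 hpf. Both stayed below the interpolated control, nr2e3 at -1.26 and crx at -0.66. The fatty acid elongase gene elovl4b had 24.9 in ethanol eyes and 48.5 in control eyes (-0.84). The factor gene neurod1 differed by -0.31 and otx2b by -0.24. Opsin genes are not yet expressed in full at this age, and opn1sw2, the blue cone opsin gene, had 90.9 in ethanol eyes and 67.8 in control eyes.

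Inner retina genes lay on both sides. The inner retina list had 13 kept genes, 9 higher and 4 lower, with a median of 0.09, or -0.17 with centring on each array's median. The 4 lower members are given here. The gene bhlhe22, an amacrine cell factor in the mouse, had 215 in ethanol eyes and 422 in control eyes (-0.96). The bipolar cell factor gene vsx1 had 50.5 and 95.9 (-0.86). The bHLH gene neurod4 had 238 in ethanol eyes and 431 in control eyes (-0.84), and foxn4, a progenitor factor of horizontal and amacrine cells, had 300 and 430 (-0.51). Against the interpolated control vsx1 (-1.34) and bhlhe22 (-0.43) were still lower, while neurod4 (0.48) and foxn4 (0.03) were not. On the higher side, gad1b, of inhibitory neurons, was at 0.72, the amacrine and ganglion cell factor gene barhl2 at 0.63 and the amacrine factor gene tfap2b at 0.09, with barhl2 at -0.19 against the interpolated control, and gad1b is a gene of brain neurons too. In 1 of the 13, gad1b, only the ethanol array was above its median, so gad1b had to differ.

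**Figure D4:**
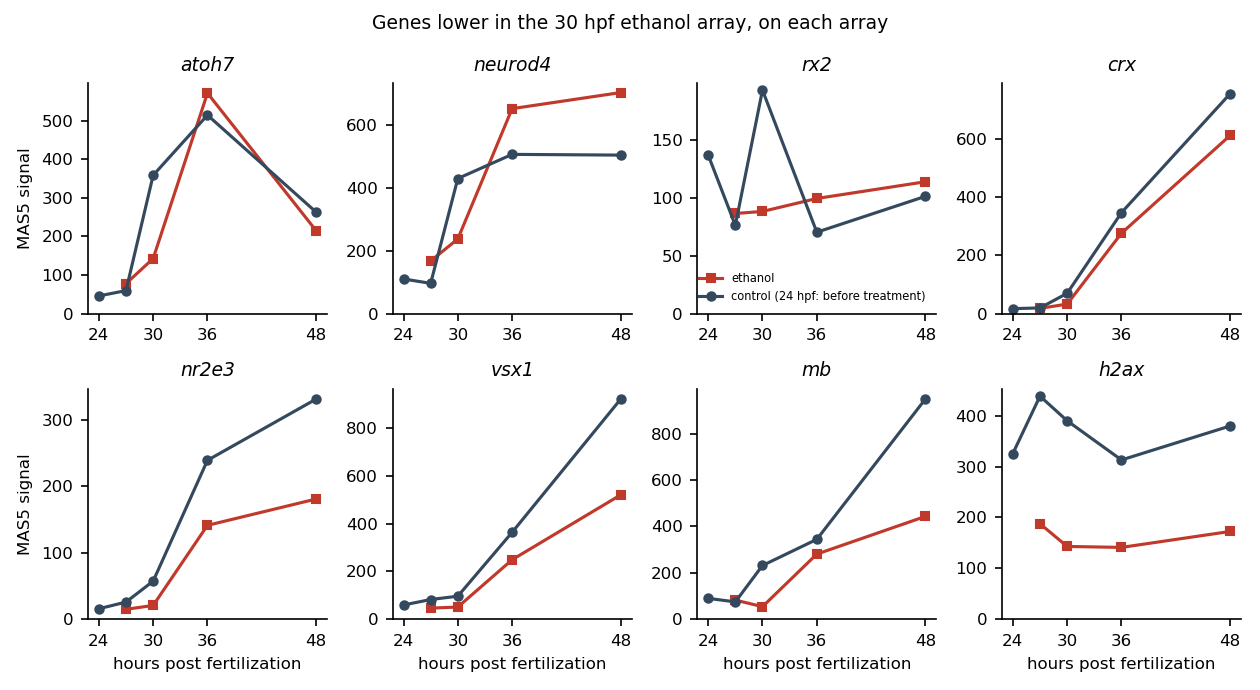
MAS5 signal (vertical axis) of 8 genes lower in ethanol eyes at 30 hpf, by hours post fertilization (horizontal axis), in ethanol eyes (red squares) and control eyes (dark circles, with the untreated eyes at 24 hpf). Each point is 1 array. The genes atoh7, neurod4 and rx2 were lower in ethanol eyes at 30 hpf and not at 27 or 36 hpf, while nr2e3, crx, vsx1 and h2ax were lower at 4 of 4 stages.

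Crystallin and most pigment genes were lower in ethanol eyes by less than 2-fold, and most kept genes of the other lens list were higher. All 4 kept crystallin genes were lower, with a median of -0.40, among them the gamma crystallin gene crygmxl2 (530 in ethanol eyes and 833 in control eyes) and cryaa, for the alpha A crystallin, a lens chaperone (49.95 and 72.7). Against the interpolated control the crystallin median was 0.05. Of 7 kept lens membrane, cytoskeleton and regulator genes 5 were higher and 2 lower, with a median of 0.50. In 2 of the 7, mafbb and epha2a, only the ethanol array was above its median, so these had to differ. Over all 13 on the array 8 were above 0 and the median was 0.16. The factor gene mafbb (1.08), the Eph receptor gene epha2a (1.02) and the filament gene vim (0.71) were higher, and the lens filament gene bfsp2 was the lowest, with 56.2 in ethanol eyes and 94.8 in control eyes (-0.70). Of 9 pigment cell and pigment epithelium genes 7 were lower, with a median of -0.21. The visual cycle isomerase gene rpe65a had 57.0 in ethanol eyes and 106 in control eyes (-0.84), gch2, for pteridine pigment synthesis, had 229 and 358 (-0.64), and dct, for melanin synthesis, had 991 and 1288 (-0.38). In optic stalk and periocular genes the median was 0.23, but -0.03 with each array centred on its median and -0.01 with quantile normalization, with fgf8a at 0.71 and pax2a at -0.27. Against the interpolated control gch2 (0.77), cryaa (0.37) and pax2a (0.14) were higher in ethanol eyes.

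The eye genes that rise with age were looked at together, a grouping made after values were seen. Of the eye-list genes in the upper 60% by mean signal, 33 were at least 2-fold higher in the 36 hpf control than in the 27 hpf control. At 30 hpf 22 of these 33 were lower in ethanol eyes, with a median of -0.24. At 36 hpf 22 of the 33 were lower (median -0.20), and at 27 hpf the median was 0.03. The 27 and 36 hpf controls that chose these genes also enter the differences at 27 and 36 hpf. That choice favours lower differences at 36 hpf and higher ones at 27 hpf, so these values are no independent check. Of the controls' own log2 increase between 27 and 36 hpf, the ethanol array at 30 hpf had covered a median of 23.3% and the control array 39.6%. The other 84 eye-list genes had a median of 0.09 at 30 hpf, and 35 were lower. Over all 373 bright probe sets that were at least 2-fold higher in the 36 hpf than in the 27 hpf control, 161 (43.2%) were lower in ethanol eyes at 30 hpf and the median was 0.12. These arrays give no test of whether the 33 genes differ from the 373 probe sets.

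Genes of ribosome production, mitochondria and the cell cycle were lower in ethanol eyes by small amounts in nearly every member. Background for these counts is that 46.7% of all kept probe sets were below 0. Of 83 kept ribosome assembly genes 80 were lower, 5 by at least 2-fold, with a median of -0.48. Among them surf6, for a nucleolar protein, had 132 in ethanol eyes and 312 in control eyes (-1.21), the RNA helicase gene ddx52 had 71.7 and 183 (-1.29), and riox2, for a ribosomal oxygenase, had 30.1 and 88.8 (-1.42). The gene riox2 passed through the control array alone, so it had to differ. Of 58 mitochondrial ribosomal protein genes 56 were lower (median -0.43), with mrpl12 at 415 in ethanol eyes and 971 in control eyes. Of 77 respiration genes 71 were lower (median -0.26), of 65 cell cycle and replication genes 60 were lower (median -0.27), and of 69 cytosolic ribosomal protein genes 68 were lower (median -0.21, but 0.00 with quantile normalization). Under centring on each array's median these medians were lower still, since that scaling moved all kept probe sets from 0.03 to -0.22.

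These lists differed in how the 30 hpf control stood. For cytosolic ribosomal proteins the ethanol array lay above both the 27 and 36 hpf controls in 42 of 69 genes and the 30 hpf control in 67 of 69, and the ethanol median against the interpolated control was 0.05, so the lower values rest on the 1 control array. For ribosome assembly genes the ethanol median against the interpolated control was -0.60 and for mitochondrial ribosomal proteins -0.46, with the 30 hpf control at -0.06 and 0.02. For cell cycle genes the ethanol median was -0.14, and the 30 hpf control lay above both of its neighbours in 33 of 65.

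Heat shock genes were lower rather than higher in ethanol eyes at 30 hpf. Of 28 kept heat shock and chaperone genes 24 were lower, none by 2-fold, while 46.7% of all kept probe sets were below 0. The median of the list was -0.21, or -0.08 against the interpolated control. In 15 of the 30 list genes in the upper 60% by mean signal, the 30 hpf control lay above both neighbouring controls. It lay below both in 4. The inducible gene hsp70.3, which the lens also uses in normal development, had 103 in ethanol eyes and 189 in control eyes (-0.85). The controls of hsp70.3 had 53.8, 325 and 525 at 27, 36 and 48 hpf, and the interpolated control was 0.04 below the ethanol value. The mitochondrial chaperone gene hspa9 (-0.56) and the co-chaperone gene ahsa1b (-0.52) were lower, and hsp90b1, the chaperone of the endoplasmic reticulum, was 0.59 higher. All 8 subunits of the cytosolic chaperonin CCT were lower (median -0.32), and the 30 hpf control lay above both neighbouring controls in 7 of the 8. The factor gene hsf2 had 173 on both arrays. The gene hsf1 was dim, with 6.11 in ethanol eyes and 12.01 in control eyes, and was not kept.

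Signalling genes were higher in ethanol eyes in several pathways. For comparison, 53.3% of all kept probe sets were above 0, and centring on each array's median moved their median from 0.03 to -0.22. All 10 kept Hedgehog pathway genes were higher (median 0.60). Among them were the ligand gene shha (231 in ethanol eyes and 102 in control eyes) and its midline target foxa2 (78.3 and 28.7). The gene foxa2 passed through the ethanol array alone, so it had to differ. Over all 16 Hedgehog genes on the array 15 were above 0 and the median was 0.60. All 13 kept Fgf pathway genes were higher (median 0.43), with the receptor genes fgfr3 at 205 in ethanol eyes and 124 in control eyes and fgfr2 at 634 and 396. Of 19 kept Wnt pathway genes 16 were higher (median 0.28), and the receptor gene fzd10 had 252 in ethanol eyes and 61.9 in control eyes (1.94). Over all 28 Wnt genes on the array 22 were above 0 and the median was 0.17. Of 22 Notch pathway genes 16 were higher (median 0.16, but -0.10 with centring on each array's median), with the proneural gene ascl1b at 564 in ethanol eyes and 220 in control eyes. The Hedgehog genes shha, foxa2 and nkx2.2a are also members of the brain list, so the Hedgehog and brain results share genes. The genes shha, foxa2, fzd10 and ascl1b are also expressed in the brain next to the eye, and these lists moved on the same 2 arrays as the brain list. Their part in the result was not tested.

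A small set of genes differed at 30 hpf as it did at the other stages. The monocarboxylate transporter gene slc16a9b had 240 in ethanol eyes and 40.9 in control eyes at 30 hpf (2.42), against 2.65, 2.56 and 2.42 at 27, 36 and 48 hpf. Its relative slc16a9a had 53.1 in ethanol eyes and 9.49 in control eyes. The gene txnipb, which codes for an inhibitor of thioredoxin and glucose uptake, had 69.8 in ethanol eyes and 6.87 in control eyes (2.66). The glycine cleavage genes gcshb (188 in ethanol eyes and 51.3 in control eyes) and gldc (349 and 155) and the GABA transaminase gene abat (113 and 31.1) were higher too. At 30 hpf slc16a9a, txnipb and abat passed through the ethanol array alone, so they had to differ there. The second glycine cleavage H gene, gcsha, was lower at 4 of 4 stages (-0.45 at 30 hpf), and the amino acid list that holds them had 11 higher and 15 lower members with a median of -0.06. The histone variant gene h2ax, which marks broken DNA once phosphorylated, had 143 in ethanol eyes and 390 in control eyes (-1.42), and its controls at 27 and 36 hpf of 439 and 313 lay on either side of the 30 hpf control. Alcohol, aldehyde and oxidative stress genes had 14 of 28 kept members higher and a median of 0.02.

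The 2-fold sets were partly shared with other stages. Of the 294 higher probe sets, 34 were also at least 2-fold higher at 27 hpf, 65 at 36 hpf and 83 at 48 hpf, and 13 at all of these. Over all 8101 kept probe sets the same counts were 78, 116, 372 and 16. For 162 of the 294 the difference was above 0 at 27, 36 and 48 hpf as well. Over all 8101 kept probe sets, whatever their sign at 30 hpf, 1796 were above 0 at all of these stages and 1702 below 0. Of the 31 lower probe sets 16 were below 0 at all of these stages.

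**Figure D5:**
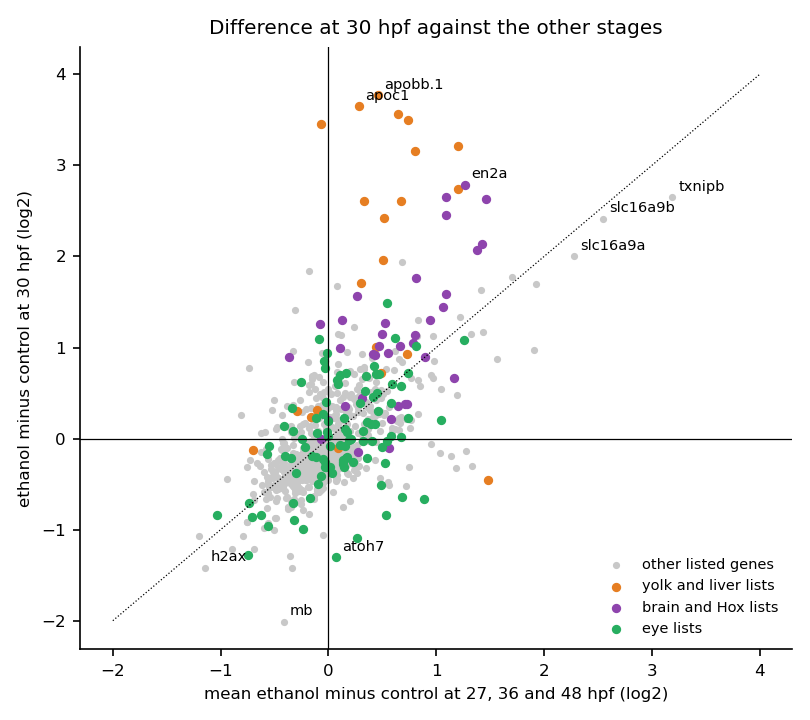
Ethanol minus control at 30 hpf (vertical axis) against the mean of the same difference at 27, 36 and 48 hpf (horizontal axis), both in log2(signal + 5), for the kept genes of the lists. Each point is 1 gene and the dotted line marks equal differences. The genes slc16a9b, slc16a9a and txnipb lie near the line, while yolk and liver genes (orange) such as apobb.1 and apoc1 lie far above it.

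Whether the difference at 30 hpf stood apart from the other stages was tested with limma on the 8 paired arrays, with stage and ethanol as terms and the 30 hpf difference against that of the other 3 stages as the tested term. No probe set of 9301 passed at an adjusted p of 0.05 in either direction (0% called each way), while 304 were above and 123 below at an unadjusted p under 0.05. The fit has 2 residual degrees of freedom and takes its spread from the 27, 36 and 48 hpf pairs. The smallest adjusted p was 0.279. The yolk and liver genes were among the lowest, with a 30 hpf difference above the other stages by 2.76 ± 0.33 for afp4 and 2.92 ± 0.41 for apoa1a (SE, adjusted p of 0.28 each in limma), and by 3.31 ± 0.52 for apobb.1. For rx2 the 30 hpf difference was at -1.36 ± 0.31 against that of the other stages (SE, unadjusted p 0.00256, adjusted p 0.979 in limma). Without the 48 hpf pair, 50 probe sets were above and 14 below at the same threshold.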

How the data were processed

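RNA of dissected eyes was hybridized to 9 Affymetrix zebrafish arrays. The authors deposited signal intensities, linear in scale and made with MAS5 per the submitters' processing notes. The arrays shared a trimmed mean (2% at each end) of about 125 and were used as deposited. The number of arrays limits the precision, and p-values measure only the spread between these samples. Of 15617 probe sets, 115 AFFX controls were left out, and 15502 were taken as log2(signal + 5).

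The platform annotation, updated by gene identifier, gave 1 symbol for 10795 probe sets, several for 135 and none for 4572. The interpolated control is the log2 line between the 27 and 36 hpf controls. limma 3.58.1 (R 4.3.3) was fitted to the upper 60% by mean with Benjamini-Hochberg adjustment at 0.05, and was tested on simulated data.

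The 37 gene lists and the genes compared were chosen with earlier results of these data known. Genes named were the 20 largest differences each way, the 4 largest each way in each list, called genes of smallest limma p (none), eye factors, heat shock factors, and slc16a9a, slc16a9b, abat, gcshb and h2ax. The exceptions, chosen after their values were seen, are apoc2, apoeb, olig3, dbx1b, foxb1a, neurod6b, gldc, robo1, syt1a, syt4, cplx2a, maptb, gnrh2, prnprs3, arrb2b, napepld, noc4l and lap3. The alternatives were other pseudocounts, filters, scalings and controls.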

Additional observations from a re-analysis of the deposited data

Results flagged for a closer look

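The eye field gene rx2 differed by -1.09 at 30 hpf, with 88.3 in ethanol eyes and 193 in control eyes, while ethanol eyes were the higher ones at 27 hpf (0.17), 36 hpf (0.47) and 48 hpf (0.16). A sign at 30 hpf opposite to that of all other stages singled it out among the named genes that were at least 2-fold apart. In limma the 30 hpf difference of rx2 was at -1.36 ± 0.31 against the other stages (SE), with an unadjusted p of 0.00256 and an adjusted p of 0.979 over all probe sets, so it did not pass. With 1 array per group no sample could be compared with others of its group.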

How the results depend on the processing

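The count of probe sets at least 2-fold higher in ethanol eyes was 294. It became 172 with a pseudocount of 16, 131 with each array centred on its median, 171 with quantile normalization, 162 against the interpolated control, 471 with no filter on dim probe sets and 86 with the brighter array above its 75th percentile. The count of 31 lower became 148 with centring and 89 with quantile normalization, so the higher share of all 2-fold calls was 90.5% as deposited, 47% with centring and 65.8% with quantile normalization. Without the listed genes of yolk, liver, brain and other tissues, an alternative chosen after seeing the data, the counts were 256 and 30. The 18 probe sets in which the 30 hpf control lay 2-fold outside its neighbours became 9 with a pseudocount of 16. In limma, leaving out the 27, 36 or 48 hpf pair in turn gave 0 to 50 probe sets above and 0 to 14 below, and every other alternative run gave 0. Of the 37 lists, 23 had a median above that of all kept probe sets, and 22 to 25 under the alternatives.

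Against the interpolated control the sign turned for the median of lens crystallins (0.053) and cytosolic ribosomal proteins (0.052). It also turned for the named genes atoh7 (0.19), barhl2 (-0.19), cryaa (0.37), crybb1 (0.053), foxn4 (0.027), gch2 (0.77), hsp70.3 (0.042), igfbp1a (0.65), neurod4 (0.48), pax2a (0.14), rx1 (0.11) and rx2 (0.24). The sign also turned with centring for the medians of optic stalk genes (-0.026) and of cartilage and connective tissue genes (-0.0398), and with quantile normalization for optic stalk genes (-0.014). The cause was not tested. The interpolated control assumes a straight line on the log2 scale between 27 and 36 hpf.

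Ethanol and control arrays were paired by stage in limma, and no replicate block was fitted because the labels give no replicate numbers. Grouping by the treatment characteristic was not run, since it leaves no ethanol array at 30 hpf. MAS5 values come without detection calls here, so low signals such as those of hsf1 cannot be told from background.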

Other observations

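Some gene groups showed smaller differences at 30 hpf. Of all kept probe sets 53.3% were above 0, and centring on each array's median moved their median from 0.03 to -0.22. Of 22 kept p53 and apoptosis genes 16 were higher in ethanol eyes (median 0.30), and the initiator caspase gene casp9 had 59.4 in ethanol eyes and 24.5 in control eyes (1.13). Of 20 glycolytic enzyme genes 15 were higher (median 0.33), with pgam1b at 263 in ethanol eyes and 151 in control eyes. Of 9 cholesterol synthesis genes 8 were higher (median 0.42), among them nsdhl with 48.6 in ethanol eyes and 22.8 in control eyes. The genes casp9 and nsdhl passed through the ethanol array alone, so they had to differ. Over the array 21 of 33 p53 and apoptosis, 20 of 29 glycolytic and 10 of 13 cholesterol genes were above 0. Their medians were 0.21, 0.29 and 0.42. Endoplasmic reticulum stress genes were split, with 15 of 27 higher and calr at 288 in ethanol eyes and 127 in control eyes, and their median of 0.17 became -0.09 with centring on each array's median. Of 12 kept retinoic acid pathway genes 9 were higher and 3 lower (median 0.19). Over all 23 on the array 13 were above 0 and the median was 0.08. The lowest kept one was stra6, a retinol uptake receptor gene, with 113 in ethanol eyes and 142 in control eyes. It was lower at 4 of 4 stages, while rbp4, the retinol carrier gene of the blood, was 0.93 higher.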
